A study of Mus musculus with 6 samples.

Results

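The genes described here build the cornified envelope and the late epidermis. They were taken from the promoter table by gene symbol: every Sprr, Lce, S100a, Klk and Tgm gene with a number in its symbol, together with Ivl, Flg, Rptn, Casp14, Scel and Asprv1. The rule found 76 promoter sequences of 73 genes among 26200 promoter sequences in all. Flg, Asprv1 and S100a6 had 2 sequences each. Of the 76 sequences, 66 were named through the current symbol of their accession, 5 through a symbol and 5 through a synonym, and 35 carry a newer name than the deposited one. Lor, Flg2, Hrnr, Krtdap, Sbsn, Cdsn, Klk5, Klk11, Klk12 and Klk13 had no sequence in the table under these names, and their promoter ratios were not analysed here.

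The samples were C57BL/6J mouse keratinocytes that had been switched to high-calcium medium at confluence and were harvested 4 days later. Chromatin was precipitated with an antibody to Plakoglobin (3 arrays) or to β-catenin (3 arrays), and each array compared that ChIP DNA (Cy5) with input DNA (Cy3). No array of undifferentiated cells, of a mock antibody or of cells without either protein was analysed here, so input was the only background. The labels give neither the source of the keratinocytes beyond the strain nor whether arrays came from separate cultures, so p-values measure the spread between these arrays, which may be technical.

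A keratinocyte that leaves the basal layer replaces its plasma membrane from within by the cornified envelope, a shell of protein that transglutaminases cross-link. Involucrin, the small proline-rich (Sprr) proteins and the late cornified envelope (Lce) proteins are building blocks of that shell, and most of their genes lie together with the S100a and filaggrin genes in the epidermal differentiation complex. Plakoglobin and β-catenin are related armadillo proteins of cell junctions, and β-catenin is the nuclear partner of TCF/LEF factors in Wnt signalling. The symbol rule also brings in relatives known from other tissues, such as Klk1 and the Klk1b genes, the glandular kallikreins best known from the salivary gland, and Tgm4, a transglutaminase of the prostate.

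Promoter sequences are shown for 8 members: Casp14, S100a9, and relatives from the Sprr2 and Klk1b families that differed in their peaks. Other members with a peak over the start site are not printed. The printed stretches are the 250 bases before the start in RefSeq's GRCm38.p6 table, 5′ to 3′ along the gene's strand. Peak positions refer to the listed start, which was not compared with RefSeq's. Capitals mark matches to TATAAA or to the AP-1 motif TGANTCA, searched on both strands. Casp14 (chr10:78718294-78718543, minus strand), the caspase of cornifying keratinocytes, had peaks on 3 of 6 arrays, starting 201 bp upstream of the listed start. The β-catenin peak among them had a deposited false discovery rate of 0.138. S100a9 (chr3:90695722-90695971, minus strand), a subunit of calprotectin, had the highest single value.
Casp14: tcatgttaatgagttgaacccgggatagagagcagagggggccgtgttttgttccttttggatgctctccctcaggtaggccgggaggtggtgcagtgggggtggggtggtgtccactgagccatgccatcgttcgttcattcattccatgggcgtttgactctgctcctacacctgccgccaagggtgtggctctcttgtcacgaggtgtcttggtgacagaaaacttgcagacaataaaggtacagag
S100a9: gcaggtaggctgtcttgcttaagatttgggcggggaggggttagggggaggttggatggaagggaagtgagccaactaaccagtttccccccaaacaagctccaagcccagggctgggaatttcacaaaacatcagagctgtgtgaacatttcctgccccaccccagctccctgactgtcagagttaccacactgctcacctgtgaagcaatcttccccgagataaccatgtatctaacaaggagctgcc
Sprr2f (chr3:92364937-92365186, plus strand) and Sprr2i (chr3:92407741-92407990, plus strand) had a peak over the start site on 1 Plakoglobin array, and Sprr2h (chr3:92385435-92385684, plus strand) had no peak. All 3 have TATAAA with its first base 29 bases before the start. The AP-1 match begins 197, 193 and 198 bases before the start in Sprr2f, Sprr2i and Sprr2h.
Sprr2f: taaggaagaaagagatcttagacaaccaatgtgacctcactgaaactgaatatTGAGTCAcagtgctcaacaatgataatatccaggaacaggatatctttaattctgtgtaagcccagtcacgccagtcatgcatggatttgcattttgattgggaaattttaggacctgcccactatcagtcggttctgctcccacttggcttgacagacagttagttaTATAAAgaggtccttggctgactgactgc
Sprr2i: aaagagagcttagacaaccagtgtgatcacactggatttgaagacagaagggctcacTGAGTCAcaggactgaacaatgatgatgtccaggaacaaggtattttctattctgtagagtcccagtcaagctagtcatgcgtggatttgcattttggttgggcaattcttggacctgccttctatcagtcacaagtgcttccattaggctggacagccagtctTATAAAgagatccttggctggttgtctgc
Sprr2h: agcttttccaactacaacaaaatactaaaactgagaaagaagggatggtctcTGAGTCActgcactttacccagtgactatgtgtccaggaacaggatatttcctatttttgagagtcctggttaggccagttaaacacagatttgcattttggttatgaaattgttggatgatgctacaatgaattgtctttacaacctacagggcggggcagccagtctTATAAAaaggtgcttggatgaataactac
Klk1b21 (chr7:44102042-44102291, plus strand) and Klk1b27 (chr7:44052040-44052289, plus strand) had a peak at the start site on 1 Plakoglobin array, and Klk1b22 (chr7:44112423-44112672, plus strand) had one on 1 β-catenin array. None of the 3 printed stretches holds a match to either motif.
Klk1b21: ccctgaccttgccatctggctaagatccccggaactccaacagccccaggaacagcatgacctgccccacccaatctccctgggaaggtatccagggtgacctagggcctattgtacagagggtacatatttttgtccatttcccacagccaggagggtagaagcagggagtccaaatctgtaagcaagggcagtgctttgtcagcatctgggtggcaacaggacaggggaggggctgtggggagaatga
Klk1b27: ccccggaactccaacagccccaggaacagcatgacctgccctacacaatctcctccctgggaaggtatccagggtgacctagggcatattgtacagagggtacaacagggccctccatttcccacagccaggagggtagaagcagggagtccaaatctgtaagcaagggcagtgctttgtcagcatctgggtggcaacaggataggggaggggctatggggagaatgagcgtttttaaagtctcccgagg
Klk1b22: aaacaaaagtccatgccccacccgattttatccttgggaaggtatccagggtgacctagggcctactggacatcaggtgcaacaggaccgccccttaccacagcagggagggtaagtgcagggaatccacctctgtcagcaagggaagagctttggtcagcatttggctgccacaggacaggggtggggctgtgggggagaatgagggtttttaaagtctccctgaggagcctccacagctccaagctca

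Values below are centred log2 ratios: the authors' log2 ratio of ChIP over input, averaged over the probes of a promoter sequence, minus the array's median over all promoters. Thus 0 is the median promoter of that array. The deposited ratios had array medians of 0.229, 0.447 and 0.194 for Plakoglobin, and for β-catenin of 0.148, 0.445 and 0.184. β-catenin arrays 1 and 2 had the shortest peak lists (436 and 330 peaks, against 1739 to 2684 on the other arrays). The spread of probe values within a promoter also differed by number: its median SD was 0.663 on Plakoglobin array 2 and 0.75 on β-catenin array 2, against 0.265 to 0.359 on the others. The part of this in the results was not tested. The number of arrays limits the precision, with a median standard error of 0.33 for the difference between antibodies over the 76 members and 0.29 over all promoters.

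The late differentiation promoters as a whole lay at the level of the median promoter with either antibody. The median of the members' means was 0.02 for Plakoglobin and 0.00 for β-catenin, against 0.05 for Plakoglobin and 0.01 for β-catenin over all 26200 promoters. With Plakoglobin 40 of 76 members had a mean above 0 (52.6%, against 56.6% of all promoters), and with β-catenin 39 (51.3%, against 51.5%). Above 0 on all 3 Plakoglobin arrays were 14 members (18.4%, against 16.8%), and on all 3 β-catenin arrays 8 (10.5%, against 16.3%). Below 0 on all 3 were 14 members with Plakoglobin (18.4%, against 16.3%) and 8 with β-catenin (10.5%, against 15.5%). High values stood mostly on single arrays. Exactly 1 of the 3 Plakoglobin arrays was above 1 at 21 members (27.6%, against 19.7% of all promoters), and at least 2 were at 2 members (2.63%, against 2.19%). With β-catenin, exactly 1 array was above 1 at 9 members (11.8%, against 10.0%) and at least 2 were at 1 member (1.32%, against 0.195%), which was Lce1b. By array, 8, 8 and 9 members were above 1 with Plakoglobin (10.5%, 10.5% and 11.8%, against 8.31%, 10.7% and 5.21% of all promoters). With β-catenin 1, 0 and 10 members were (1.32%, 0.0% and 13.2%, against 1.24%, 3.25% and 5.95%).

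**Figure D1:**
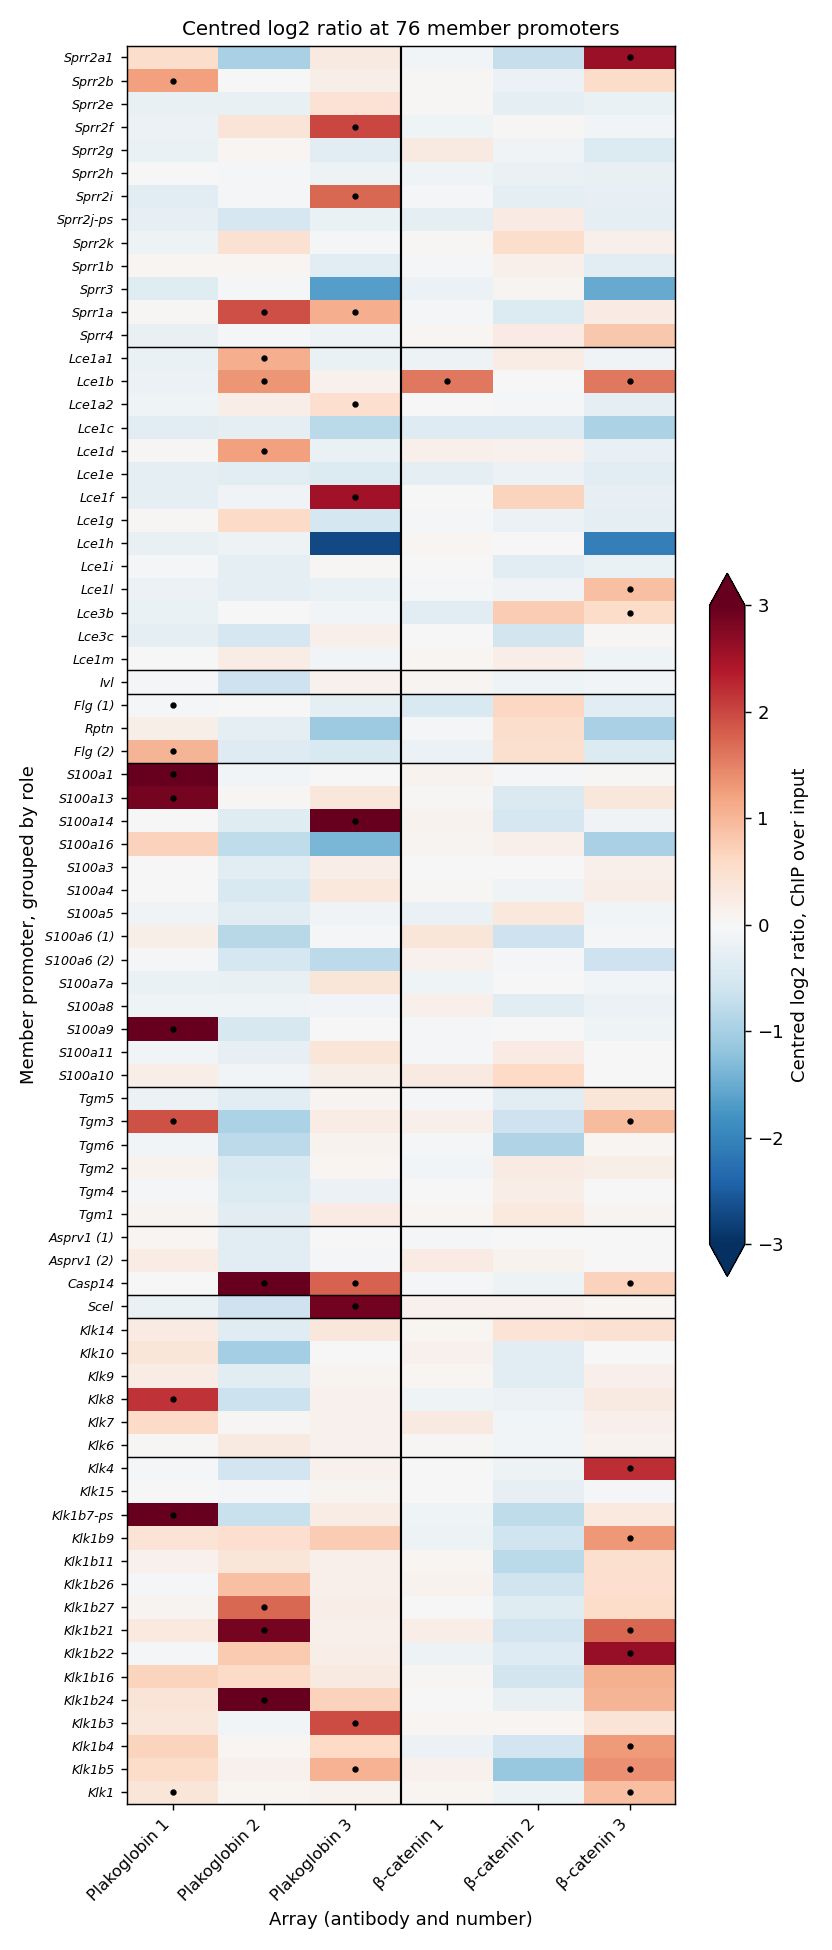
Centred log2 ratio (colour, ChIP over input) at each of the 76 member promoters (rows, grouped by role; numbers in brackets tell sequences of a gene apart) on the 3 Plakoglobin arrays (left) and the 3 β-catenin arrays (right). Black dots mark arrays with a listed peak; strong colour mostly stands in 1 column of a row, and colours stop at 3 and -3.

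In limma's moderated test over all promoters, no member passed an adjusted p of 0.05 for Plakoglobin over input (0 of 76, background 0.0% of 26200). The lowest adjusted p among members was 0.696 in limma. At an unadjusted p under 0.05, 1 member lay above the median promoter (1.32%, against 1.64% of all promoters) and 3 lay below it (3.95%, against 2.14%). The member above was Sprr1a, and those below were Lce1e, Lce1c and the second S100a6 sequence, of which Lce1e and S100a6 are named after their values were seen. For β-catenin over input limma also called no member (0 of 76, background 0.0%), with a lowest adjusted p of 0.894. No member lay above at an unadjusted p under 0.05 (background 0.26%) and 1 lay below (1.32%, against 1.5%), again Lce1c.

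The comparison between the antibodies asks where the related proteins occupied different promoters. For Plakoglobin minus β-catenin limma called no member (0 of 76, background 0.0%, every adjusted p = 1), and none had an unadjusted p under 0.05 in either direction (background 0.569% higher and 0.16% lower). The members' median difference was 0.04, against 0.01 over all promoters. No member had all 3 Plakoglobin arrays above all 3 β-catenin arrays (background 2.57%). At 3 members, Sprr4, Lce1l and Tgm4, all Plakoglobin arrays lay below all β-catenin arrays (3.95%, against 2.56%). The largest differences belonged to promoters with 1 or 2 high Plakoglobin arrays. They were Casp14 (1.70), S100a9 (1.50), S100a14 (1.36), Klk1b24 (1.25), Klk1b7-ps (1.23), S100a13 (1.10) and Sprr1a (1.09). Their standard errors ran from 0.56 (Sprr1a) to 1.42 (Casp14).

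**Figure D2:**
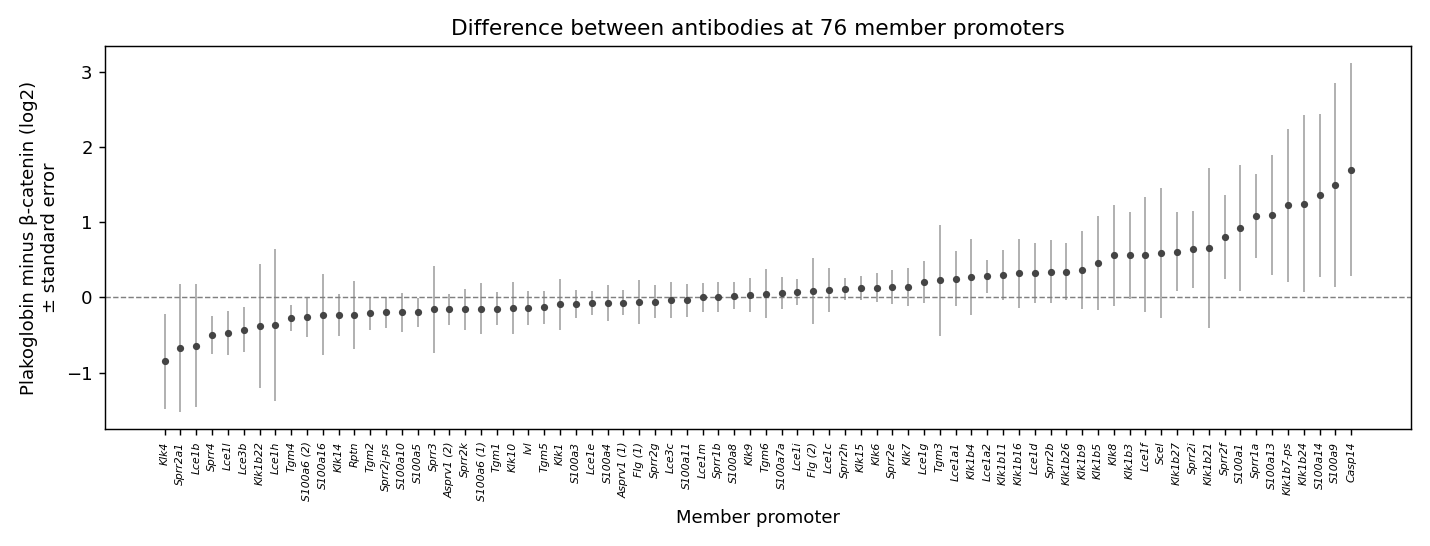
Difference between antibodies in mean centred log2 ratio (Plakoglobin minus β-catenin, 3 arrays each) at the 76 member promoters in order of size, with bars of 1 standard error from limma. The values run from -0.85 at Klk4 to 1.70 at Casp14, and the bars are longest at Casp14 and S100a9.

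The authors' peaks gave a second readout of the same arrays. With Plakoglobin 26 of 76 members had a peak on at least 1 array (34.2%, against 27.2% of all promoters), and with β-catenin 13 had one (17.1%, against 12.4%). The 13 Klk1 and Klk1b promoters, singled out after their values were seen, had the larger shares, 53.8% with Plakoglobin and 46.2% with β-catenin. For the other 63 members the shares were 30.2% with Plakoglobin and 11.1% with β-catenin. Over both antibodies, 33 members had a peak on at least 1 of 6 arrays (43.4%, against 34.6%). Peaks seldom recurred. On at least 2 of 3 arrays they were found at 2 members with Plakoglobin, Casp14 and Sprr1a (2.63%, against 4.32%), and at 1 with β-catenin, Lce1b (1.32%, against 0.706%). Counting peaks on both arrays that remain, the Plakoglobin count was 0 without array 2 or array 3, and the β-catenin count was 0 without array 1 or array 3. No member had a peak on all 3 arrays of either antibody (background 0.607% for Plakoglobin and 0.0229% for β-catenin). Peaks of both antibodies, on at least 1 array each, stood at 6 members (7.89%, against 4.9%): Casp14, Lce1b, Tgm3, Klk1b21, Klk1b5 and Klk1. Some of these peaks were weak by their deposited false discovery rate. It was 0.138 for the β-catenin peak at Casp14, 0.111 for that at Tgm3 and 0.131 for the Plakoglobin peak at Klk1. Lce1b, Klk1b21 and Klk1b5 kept peaks of both antibodies at a rate of at most 0.05. By Plakoglobin array, 10, 8 and 10 members had a peak (13.2%, 10.5% and 13.2%), against a background of 11.9%, 12.4% and 7.79% of all promoters. By β-catenin array, 1, 0 and 13 members had one (1.32%, 0.0% and 17.1%), against 2.25%, 2.07% and 8.77%. The members' β-catenin peaks came from array 3, apart from 1 at Lce1b on array 1.

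The 42 peaks at members merged into 36 regions, of which 4 were seen on at least 2 arrays (11.1%, against 11.2% of the 8533 regions of all peaks). Positions are as deposited; the build behind them is stated neither in the labels nor in the file headers. The Casp14 region (chromosome 10, 78607518 to 78608047) and the Lce1b region (chromosome 3, 92872487 to 92873056) were each seen on 3 arrays and with both antibodies. The β-catenin peak in the Casp14 region had a false discovery rate of 0.138. The Sprr1a region (chromosome 3, 92697293 to 92697852) was seen on 2 Plakoglobin arrays. The Klk1 region (chromosome 7, 31617764 to 31618083) had the same bounds on Plakoglobin array 1 (false discovery rate 0.131) and β-catenin array 3 (0.028). Member peaks lay at a median distance of 582.5 bp from the listed start site, against 339.0 bp for all peaks. Of member peaks, 47.6% were within 500 bp, against 59.3% of all peaks.

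**Figure D3:**
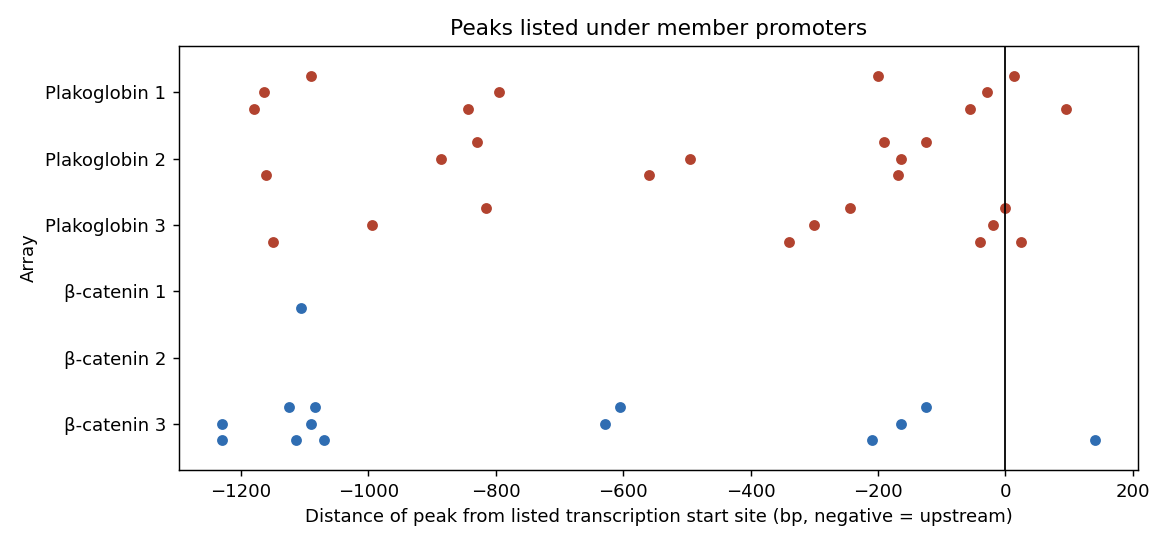
Distance of each listed peak from the member's transcription start site (horizontal axis, bp, negative is upstream), by array, with Plakoglobin arrays above β-catenin arrays. Points within an array are offset vertically for legibility. Peaks gather near the start site and about 1 kb upstream, β-catenin array 2 has none and β-catenin array 1 has 1.

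The Sprr proteins are short, glutamine- and proline-rich cross-bridging substrates of the transglutaminases. Of their 13 promoters, 5 had a Plakoglobin mean above 0 (against 56.6% of all promoters) and 4 a β-catenin mean above 0 (against 51.5%). The medians of the means were -0.06 for Plakoglobin and -0.08 for β-catenin. Sprr1a had the most repeated Plakoglobin signal of the family, with 0.04, 1.93 and 1.08 on Plakoglobin arrays 1 to 3, against -0.05, -0.41 and 0.24 on β-catenin arrays 1 to 3. Plakoglobin arrays 2 and 3 were above every β-catenin array, and Plakoglobin array 1 lay within the β-catenin range. The difference was 1.09 ± 0.56 (standard error, n = 3 each), which did not pass in limma (adjusted p = 1). Its Plakoglobin peaks lay 401 to 720 and 1021 to 1300 bp upstream of the start on array 2 and 671 to 960 bp upstream on array 3.

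Sprr2f and Sprr2i carried a peak over the start site on Plakoglobin array 3 alone. Sprr2f had -0.18, 0.38 and 2.01 on the Plakoglobin arrays, against -0.14, 0.03 and -0.08 on the β-catenin arrays. Sprr2i had -0.31, -0.06 and 1.72 on the Plakoglobin arrays, against -0.03, -0.29 and -0.25 on the β-catenin arrays. In both, Plakoglobin array 3 stood above all other arrays and the rest overlapped. With the median over probes the Sprr2f difference was 0.03, against 0.80 with the mean, and without Plakoglobin array 3 it was 0.17. Sprr2h, whose stretch before the start holds the same pair of motifs, ranged from -0.16 to -0.01 on the Plakoglobin arrays and from -0.22 to -0.14 on the β-catenin arrays. The printed stretches of Sprr2f and Sprr2i were 74.0% identical, those of Sprr2f and Sprr2h 60.1%, and those of Sprr2h and Sprr2i 64.6%. Sprr2a1 was high with the other antibody: 0.52, -0.98 and 0.28 on the Plakoglobin arrays, against -0.09, -0.68 and 2.60 on the β-catenin arrays, with a peak on β-catenin array 3.

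Sprr4 and Sprr3 had no peak. Sprr4 had -0.22, -0.03 and -0.15 on the Plakoglobin arrays, against 0.05, 0.24 and 0.80 on the β-catenin arrays. All Plakoglobin arrays lay below all β-catenin arrays, as at 2.56% of all promoters. The difference of -0.50 ± 0.25 (standard error, n = 3 each) did not pass in limma (adjusted p = 1). It was -0.28 without β-catenin array 3 and -0.21 with the median over probes. Sprr3 had -0.36, -0.06 and -1.66 with Plakoglobin, against -0.17, 0.08 and -1.52 with β-catenin, so the low value stood on array 3 of both antibodies.

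The Lce proteins are added to the envelope late, on its inner face. Of 14 Lce promoters, 7 had a Plakoglobin mean above 0 (against 56.6% of all promoters) and 6 a β-catenin mean above 0 (against 51.5%). The medians were -0.03 for Plakoglobin and -0.06 for β-catenin. Lce1b was the member with the highest β-catenin mean. It had -0.18, 1.32 and 0.12 on the Plakoglobin arrays, against 1.59, -0.02 and 1.59 on the β-catenin arrays. The antibodies overlapped, and each had at least 1 array near 0. The β-catenin peaks lay 941 to 1270 bp upstream of the start on array 1 and 871 to 1270 bp on array 3, and the Plakoglobin peak lay 701 to 1070 bp upstream on array 2.

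Lce1h was the lowest member with both antibodies, at -0.23, -0.15 and -2.71 on the Plakoglobin arrays, against 0.05, 0.01 and -2.04 on the β-catenin arrays. Its low mean rested on array 3 of each antibody, as at Sprr3. Lce1c was below 0 on all 6 arrays, with -0.34, -0.30 and -0.80 for Plakoglobin and -0.38, -0.39 and -0.95 for β-catenin. Lce1l had -0.18, -0.27 and -0.20 with Plakoglobin, against -0.04, -0.10 and 0.91 with β-catenin. Its Plakoglobin values lay below its β-catenin values, as at 2.56% of all promoters. Lce3b, which had a β-catenin peak on array 3, had -0.20, -0.01 and -0.08 on the Plakoglobin arrays, against -0.31, 0.75 and 0.54 on the β-catenin arrays. Lce1a2 had -0.14, 0.20 and 0.50 with Plakoglobin, against 0.00, -0.04 and -0.26 with β-catenin, and a Plakoglobin peak on array 3. The highest single Lce value with Plakoglobin was 2.52, at Lce1f on array 3.

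Involucrin (Ivl), the early scaffold of the envelope, had no peak with either antibody. It had -0.06, -0.62 and 0.14 on the Plakoglobin arrays, against 0.09, -0.13 and -0.09 on the β-catenin arrays, and the antibodies overlapped. Filaggrin (Flg), which bundles keratin and is later broken down to moisture-binding amino acids, had 2 sequences under 1 accession. The first had -0.06, -0.01 and -0.29 with Plakoglobin, against -0.46, 0.61 and -0.32 with β-catenin. The second had 1.03, -0.39 and -0.45 with Plakoglobin, against -0.17, 0.49 and -0.41 with β-catenin. The 2 sequences differed most on Plakoglobin array 1, where the accession has a peak that counts for both. Repetin (Rptn), a related fused S100 protein, had 0.18, -0.30 and -1.08 with Plakoglobin, against -0.05, 0.53 and -0.98 with β-catenin, again with array 3 lowest for both.

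The S100a proteins are small calcium-binding proteins, several of which are made in differentiating or inflamed epidermis. Of their 14 promoters, 6 had a mean above 0 with each antibody (against 56.6% of all promoters for Plakoglobin and 51.5% for β-catenin). A Plakoglobin peak stood at 4 (28.6%, against 27.2% of all promoters), of which 2 share 1 peak, and none had a β-catenin peak (against 12.4%). S100a9 had 4.80, -0.47 and -0.02 on the Plakoglobin arrays, against -0.05, -0.01 and -0.14 on the β-catenin arrays. The 4.80 was the highest value of any member on any array, and the other 5 arrays lay at or below -0.01. Its peak on Plakoglobin array 1 reached 480 bp upstream of the start and 79 bp past it. S100a8, which encodes the partner subunit of S100a9, stayed at -0.12, -0.10 and -0.08 with Plakoglobin, against 0.16, -0.34 and -0.18 with β-catenin, with no peak.

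S100a14 had -0.01, -0.36 and 3.94 on the Plakoglobin arrays, against 0.10, -0.50 and -0.10 on the β-catenin arrays, so it was high on array 3 where S100a9 was high on array 1. S100a13 had 2.87, 0.03 and 0.33 with Plakoglobin, against 0.04, -0.43 and 0.34 with β-catenin, and shared 1 peak on Plakoglobin array 1 with its neighbour S100a1 (2.99 there). These neighbouring promoters therefore do not count as separate occurrences. S100a16 lay low, with 0.69, -0.76 and -1.36 with Plakoglobin, against 0.08, 0.15 and -0.98 with β-catenin.

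The transglutaminases cross-link the envelope proteins, with Tgm1, Tgm3 and Tgm5 doing so in the epidermis. Of the 6 Tgm promoters 1 had a Plakoglobin mean above 0 (against 56.6% of all promoters) and 5 had a β-catenin mean above 0 (against 51.5%). The medians were -0.12 for Plakoglobin and 0.09 for β-catenin. On Plakoglobin array 2 all 6 lay below 0, where 50.0% of all promoters were above 0. Tgm1, the membrane-bound enzyme, had 0.09, -0.34 and 0.24 with Plakoglobin, against 0.07, 0.29 and 0.08 with β-catenin. Tgm5 had -0.18, -0.31 and 0.08 with Plakoglobin, against -0.05, -0.31 and 0.36 with β-catenin. Neither had a peak, and in both the antibodies overlapped.

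Tgm3 was the Tgm promoter with peaks, on Plakoglobin array 1 and on β-catenin array 3 (false discovery rate 0.111 on the latter). It had 1.92, -0.96 and 0.23 with Plakoglobin, against 0.16, -0.63 and 0.96 with β-catenin, and array 2 was lowest for both. Tgm6 had -0.09, -0.79 and 0.10 with Plakoglobin, against -0.07, -0.91 and 0.05 with β-catenin, so its values followed the array number closely. Tgm4 had -0.03, -0.41 and -0.17 with Plakoglobin, against 0.02, 0.19 and -0.02 with β-catenin. Its 3 Plakoglobin values lay below its β-catenin values, as at 2.56% of all promoters. The difference was -0.27 ± 0.17 (standard error, n = 3 each, limma adjusted p = 1).

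Casp14, the caspase that takes part in filaggrin breakdown, was the member with the highest Plakoglobin mean and with peaks on 3 of 6 arrays. It had -0.01, 3.84 and 1.78 on the Plakoglobin arrays, against -0.04, -0.15 and 0.69 on the β-catenin arrays. Plakoglobin arrays 2 and 3 were above every β-catenin array, and Plakoglobin array 1 was not. The difference of 1.70 ± 1.42 (standard error, n = 3 each) did not pass in limma (adjusted p = 1). Without Plakoglobin array 2 the difference was 0.72. The peaks spanned 301 to 690 bp upstream of the listed start on Plakoglobin array 2, 201 to 400 bp on Plakoglobin array 3 and 481 to 730 bp on β-catenin array 3. The listed start was not compared with the RefSeq start, so the peaks were not placed on the stretch printed above. The β-catenin peak had a false discovery rate of 0.138, against at most 0.00826 for the Plakoglobin peaks.

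Asprv1, the retroviral-like aspartic protease that cuts profilaggrin, lay near 0 at both sequences. The first had 0.06, -0.33 and -0.02 with Plakoglobin, against -0.05, 0.00 and -0.02 with β-catenin. The second had 0.23, -0.31 and -0.03 with Plakoglobin, against 0.25, 0.10 and 0.01 with β-catenin. Sciellin (Scel), an envelope precursor outside the differentiation complex, had -0.20, -0.61 and 2.89 with Plakoglobin, against 0.12, 0.12 and 0.07 with β-catenin. Plakoglobin array 3 was high, with a peak, and the other two Plakoglobin arrays lay below all β-catenin arrays. With the authors' median over probes the difference was 1.36, against 0.59 with the mean, and without Plakoglobin array 3 it was -0.51.

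**Figure D4:**
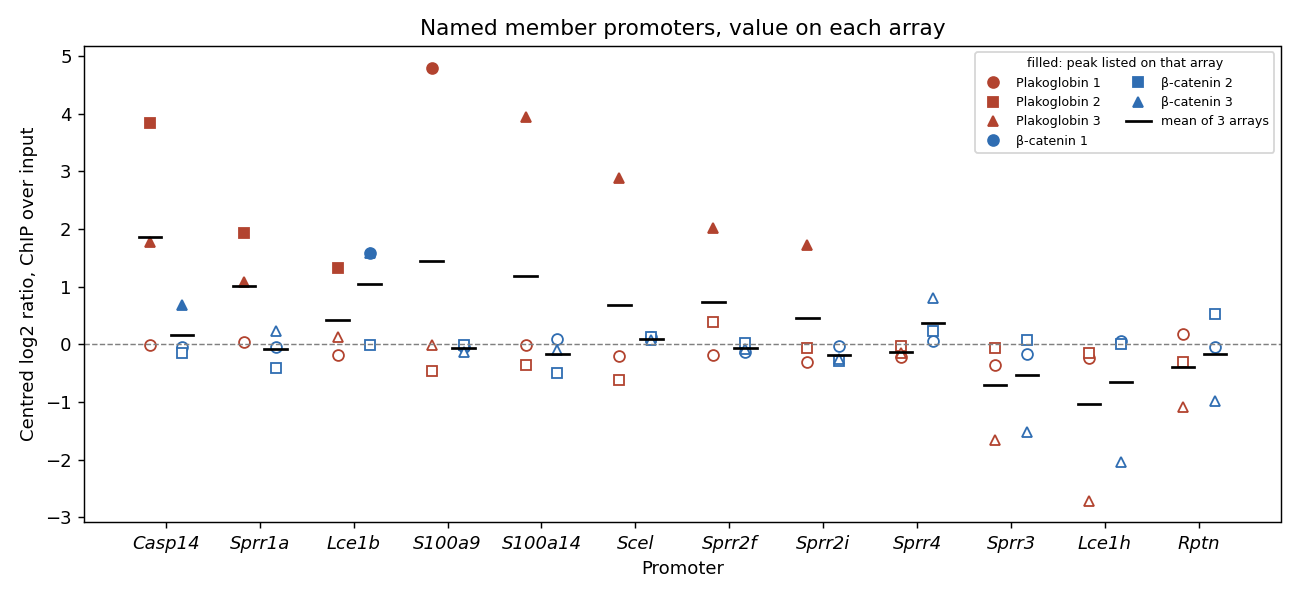
Centred log2 ratio (vertical axis, ChIP over input) on each array at 12 named promoters, with Plakoglobin arrays in red at the left of each gene and β-catenin arrays in blue at the right. Circles, squares and triangles stand for array numbers 1, 2 and 3, filled symbols for arrays with a peak and black lines for means of 3 arrays; Sprr3, Lce1h and Rptn have their lowest value on array 3 with both antibodies.

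Kallikrein-related proteases such as Klk7 and Klk14 cut the desmosomes that hold corneocytes together, which lets them shed. Of the 6 skin kallikrein promoters, 4 had a Plakoglobin mean above 0 (against 56.6% of all promoters) and 3 a β-catenin mean above 0 (against 51.5%). The medians were 0.11 for Plakoglobin and 0.00 for β-catenin. Klk7 had 0.57, 0.04 and 0.14 with Plakoglobin, against 0.27, -0.09 and 0.16 with β-catenin. Klk14 had 0.24, -0.36 and 0.35 with Plakoglobin, against 0.06, 0.40 and 0.45 with β-catenin. Both overlapped between antibodies and had no peak. The peak of this group, on Plakoglobin array 1 at Klk8 (2.16 there), lay outside the named promoters and is given after its value was seen.

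The other kallikreins, 15 promoters, had the highest medians among the groups of more than 1 promoter with all arrays. They had a median of 0.50 for Plakoglobin, with 14 of 15 means above 0 (against 56.6% of all promoters). For β-catenin the median was 0.17, with 12 of 15 above 0 (against 51.5%). A Plakoglobin peak stood at 7 of the 15 (46.7%, against 27.2%), and a β-catenin peak at 7 (46.7%, against 12.4%). The Plakoglobin median was 0.23 without Plakoglobin array 2, and 0.24 with the authors' median over probes in place of the mean. The β-catenin median was -0.24 without β-catenin array 3, with 1 of 15 above 0, and 0.52 without β-catenin array 2. With the median over probes it was -0.04, with 6 of 15 above 0. Within it the 13 promoters of Klk1 and Klk1b genes were singled out after their values were seen, so their counts are a description with no test. All 13 Plakoglobin means were above 0, between 0.17 and 1.52. Their median was 0.36, 0.50 and 0.22 on Plakoglobin arrays 1 to 3, against 0.04, -0.58 and 1.02 on the β-catenin arrays. The β-catenin arrays were split: 12 of 13 promoters were below 0 on array 2 and 13 of 13 were above 0 on array 3, where 6 had a peak. Of all promoters, 50.0% were above 0 on each of these arrays, and 8.77% had a peak on β-catenin array 3. Without β-catenin array 2 the median difference of the 15 promoters was -0.02, and without β-catenin array 3 it was 0.76, against 0.34 with all arrays.

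Different Klk1b promoters were high on different arrays. Klk1b24 had 0.38, 3.49 and 0.69 with Plakoglobin, against 0.02, -0.22 and 1.02 with β-catenin. Klk1b21 had 0.30, 2.86 and 0.15 with Plakoglobin, against 0.19, -0.58 and 1.72 with β-catenin, with peaks on Plakoglobin array 2 and β-catenin array 3. The peak at Klk1b21 was at the start site on Plakoglobin array 2, and 940 to 1289 bp upstream on β-catenin array 3. Klk1b7-ps, a pseudogene by its current name, had 3.54, -0.67 and 0.22 with Plakoglobin, against -0.13, -0.77 and 0.29 with β-catenin. Klk1b22 had -0.03, 0.78 and 0.19 with Plakoglobin, against -0.16, -0.39 and 2.62 with β-catenin. Klk4, an enamel protease of the same locus, had -0.07, -0.58 and 0.12 with Plakoglobin, against -0.02, -0.16 and 2.21 with β-catenin, and gave the most negative difference of all members, -0.85 ± 0.63 (standard error, n = 3 each, limma adjusted p = 1). Without β-catenin array 3 the Klk4 difference was -0.09.

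**Figure D5:**
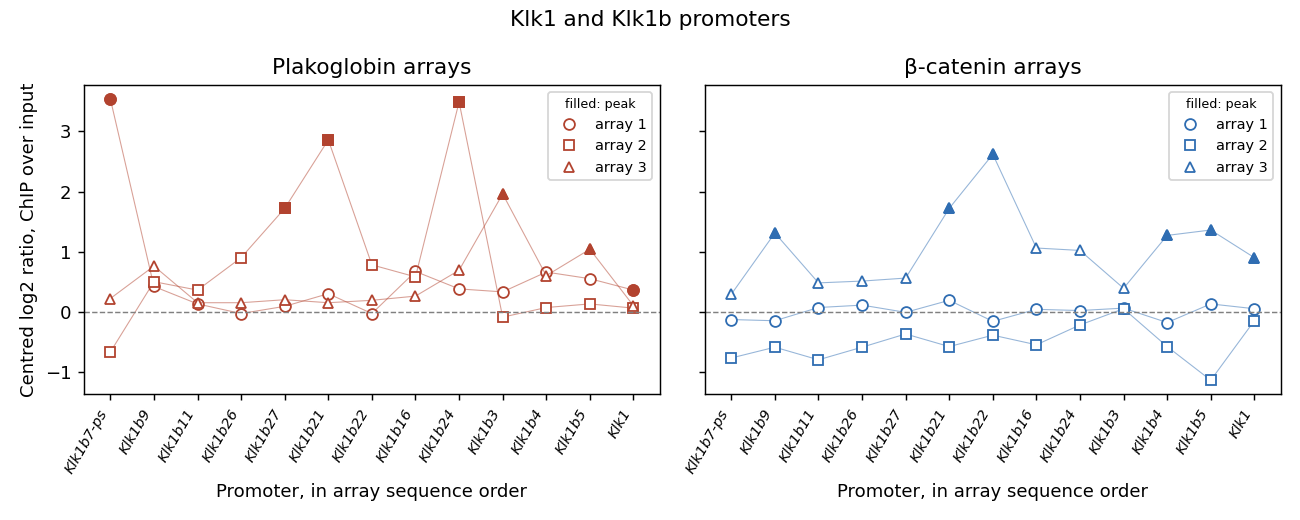
Centred log2 ratio (vertical axis, ChIP over input) at the 13 Klk1 and Klk1b promoters in the order of the array's sequence numbers, on the Plakoglobin arrays (left) and the β-catenin arrays (right). Filled symbols are arrays with a peak; β-catenin array 3 is above 0 at all 13 promoters and β-catenin array 2 is below 0 at 12.

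These promoters resemble each other in sequence. RefSeq windows of 300 bases, 250 before and 50 after the start, matched 66 of the 73 genes. Identities were taken by global alignment of the 250 bases before the start. Among the 12 Klk1 and Klk1b genes with a window, pairs had a median identity of 72.8% (38.6% to 89.7%). The medians were 66.9% for Lce1 pairs, 64.5% for Sprr2 pairs and 49.3% for S100a pairs. For pairs not both within 1 of these sets or the skin kallikreins, the median was 49.7%. Such pairs include some relatives, for example the Tgm genes. Klk1b21 and Klk1b27, high together on Plakoglobin array 2 (2.86 and 1.72), were 76.8% identical. Klk1b22 (0.78 there) was 54.5% identical to Klk1b21 and 67.4% to Klk1b27. The printed stretches of these genes end at different points of a shared sequence, and unpaired ends lower an identity. Their identities therefore also depend on where the RefSeq starts lie. Klk1b24, the highest of the family there (3.49), was 75.1% identical to Klk1b21 and 82.6% to Klk1b27. Klk1b26 (0.90 there) was 64.6% identical to Klk1b21 and 79.2% to Klk1b27. Klk1b3, which had -0.09 there, was 72.9% identical to Klk1b21 and 74.0% to Klk1b27. The other pairs are not listed here. Probe sequences were not used here, and the part of shared sequence in neighbouring ratios was not tested.

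The members' windows also differed in composition from those of the 11875 array genes matched. Their median GC content was 51.0%, against 58.0%, and their median count of CpG dinucleotides was 2, against 16. Windows with 10 or more CpG made up 7.58% of the members and 63.4% of all. TATAAA stood in 30.3% of member windows, against 12.7% of all, and TGANTCA in 19.7%, against 7.02%. Of the 20 member windows with TATAAA, 9 were among the 11 Sprr windows, and of the 13 with TGANTCA, 8 were. The TCF/LEF cores CTTTGAT and CTTTGAA, searched on both strands, stood in 1.52% and 3.03% of member windows, against 3.09% and 4.42% of all, and no AP-1 match overlapped one. A match here is a description of letters in the window.

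GC content and ratio were related on most arrays. Across the 69 member promoters with a window, Spearman's rho between GC content and centred ratio was 0.44, 0.00 and 0.38 on the 3 Plakoglobin arrays in order of number, and 0.27, -0.27 and 0.47 on the 3 β-catenin arrays. Across 12793 promoters of the array it was 0.33, 0.07 and 0.20 on the Plakoglobin arrays and 0.20, 0.25 and 0.19 on the β-catenin arrays. Promoters of 1 array share its hybridisation and are not replicates, so these values carry no p.

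Over the 76 promoters, the Plakoglobin array correlated with the β-catenin array of its own number at a Spearman's rho of 0.24 (number 1), -0.04 (number 2) and 0.53 (number 3). Over all promoters, rho for these pairs was 0.35, 0.38 and 0.41. Between arrays of different numbers and antibodies, the members' rho ran from -0.33 to 0.38, the highest between Plakoglobin array 1 and β-catenin array 3. Over all promoters it ran from 0.01 to 0.27. Within an antibody, the members' rho ran from -0.05 to 0.18 among the Plakoglobin arrays (-0.01 to 0.29 over all promoters). Among the β-catenin arrays it ran from -0.40 to 0.14 (0.07 to 0.14 over all promoters). On array 2 of both antibodies 27 of 76 members were above 0 (35.5%, against a background of 50.0% for each), while on array 3 there were 47 with Plakoglobin (61.8%, against 49.8%) and 41 with β-catenin (53.9%, against 50.0%).

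Partner genes of cornification were set beside the members: junction and plakin genes, keratins, protease inhibitors, lipid enzymes and transcription factors of the upper epidermis. Of 35 such genes 25 had a promoter, 26 sequences in all. None was called by limma in any comparison, and none had an unadjusted p under 0.05 for the difference. Their medians were 0.07 for Plakoglobin and 0.02 for β-catenin, 8 had a Plakoglobin peak (30.8%, against 27.2% of all promoters) and 1 a β-catenin peak (3.85%, against 12.4%), and no peak recurred on at least 2 arrays of an antibody. Cebpa, a transcription factor of keratinocyte differentiation, was highest with Plakoglobin, at 0.32, 1.78 and -0.04, against 0.05, 0.45 and 0.08 with β-catenin. Cebpb, its relative, had 1.29, 0.43 and 0.04 with Plakoglobin, against 0.10, 1.04 and 0.07 with β-catenin. Ugcg, which makes glucosylceramide for the skin barrier, had 0.19, 0.74 and -0.18 with Plakoglobin, against 0.15, 0.67 and 0.26 with β-catenin.

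Among the low partner promoters, Hopx had nearly equal values on arrays of the same number. Hopx, a homeodomain-only protein of differentiating keratinocytes, had -0.10, -1.31 and -0.01 with Plakoglobin, against -0.18, -1.29 and 0.06 with β-catenin. Dsc1, a desmosomal cadherin of the upper layers, had -0.11, -0.62 and -0.40 with Plakoglobin, against -0.03, 0.38 and -0.41 with β-catenin. Serpinb5, a serpin of epithelial cells, had -0.22, -0.36 and 0.66 with Plakoglobin, against -0.17, -0.87 and -0.71 with β-catenin. Promoters of keratinocyte markers had medians of 0.19 for Plakoglobin and 0.32 for β-catenin (5 promoters), and those of fibroblast markers 0.19 for Plakoglobin and 0.10 for β-catenin (4). Melanocyte marker promoters had 0.01 for Plakoglobin and -0.08 for β-catenin (6), and immune marker promoters -0.17 for Plakoglobin and 0.22 for β-catenin (2). Ratios at promoters are not expression and do not show which cells were present.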

How the data were processed

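The measurement was ChIP-chip on 2-colour NimbleGen promoter arrays, 3 per antibody. The authors deposited a log2 ratio of ChIP over input per promoter sequence (mean, median and SD over the probes it holds), as the file headers state. How probe values were normalized, the peak software's version and the genome build are not given in the sources used here. Peaks were called by the authors with the NimbleGen algorithm, separately for each array, per the file headers, and each peak has a score of unstated scale, a false discovery rate (a q-value) and a signed distance to each nearby start site. Peaks were counted for a promoter through its accession.

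Of 26275 sequences, 75 had no value. Each array was centred on its median. A group-means model over all 6 arrays was fitted with limma 3.58.1 in R 4.3.3 (eBayes with trend, two-sided, Benjamini-Hochberg over 26200 promoters, threshold 0.05). It was checked on simulated data. Array numbers come from the sample titles. Deviations from the group means correlated at 0.203, 0.235 and 0.218 for arrays of the same number and below 0 for the other pairs. Such deviations sum to 0 within an antibody, so the values below 0 largely follow from those above and add no evidence. The numbers were taken to pair the arrays in an alternative fit. Printed standard errors and p-values come from the fit without pairing, unless the block is named.

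The members and lists were chosen with earlier results of these data known. Promoters named with every array's value were those with peaks on at least 2 of 3 arrays of an antibody, the 8 highest and 4 lowest means per antibody, the 5 smallest p per direction for the difference, and fixed genes of the envelope and barrier. Of the partner genes, the 2 highest and 2 lowest per antibody were named. Names came from RefSeq's GRCm38.p6 gene table and sequences from its promoter table. Identities came from global alignment with Biopython 1.88. The remaining steps used Python 3.11.15 with scipy 1.17.1, numpy 2.4.6 and pandas 2.3.3, and matplotlib 3.10.9 for figures. Alternatives were no centring, scaling by the median absolute deviation, quantile normalization, the median over probes, no eBayes trend, single-sequence accessions, 1 value per gene, stricter peak rules, the paired fit and leaving out each array.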

Additional observations from a re-analysis of the deposited data

Results flagged for a closer look

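At Sprr4, a small proline-rich protein gene, every Plakoglobin array lay below 0 and every β-catenin array above 0. Of all promoters, 2.56% had every Plakoglobin array below every β-catenin array, and the share split at 0 was not counted. The difference of -0.50 (Plakoglobin minus β-catenin) did not pass in limma (adjusted p = 1). It was -0.28 without β-catenin array 3 and -0.21 with the median over probes.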

How the results depend on the processing

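In the runs made, no promoter of the array passed limma's threshold for Plakoglobin over input, β-catenin over input or their difference under any alternative, and leaving out arrays gave 0 for each. The paired fit with the array number as a replicate block also gave 0 and changed no call, with a lowest adjusted p of 0.89 among members for the difference. At an unadjusted p under 0.05, limma's main setting counted 429 promoters above and 561 below for Plakoglobin, 68 above and 392 below for β-catenin, and 149 higher and 42 lower for the difference. These counts depended on the setting: without centring 3356 above and 1 below for Plakoglobin and 1634 and 18 for β-catenin, and with the block 268 and 2834 for Plakoglobin and 55 and 2414 for β-catenin. For the difference, 76 were higher and 120 lower without β-catenin array 1, and 35 higher and 89 lower without β-catenin array 2. The members' median moved without centring, to 0.31 for Plakoglobin and 0.26 for β-catenin. Leaving out 1 array kept it between -0.05 and 0.09 for Plakoglobin, between -0.05 and 0.07 for β-catenin and between -0.04 and 0.09 for the difference. Without centring 68 of 76 member means were above 0 with Plakoglobin (main setting 40) and 72 with β-catenin (main setting 39), and quantile normalization gave 43 with Plakoglobin and 47 with β-catenin. Before centring every array's median lay above 0 (0.148 to 0.447), so the shift without centring is shared by all promoters of an array. Shares of all promoters above 0 were not counted in these settings, so these counts are not a result about the members. Members with peaks on at least 2 of 3 arrays, 2 for Plakoglobin and 1 for β-catenin, numbered 0 for Plakoglobin and 0 for β-catenin with equally long lists of top peaks. Within 500 bp of the start they numbered 1 for Plakoglobin and 0 for β-catenin. Leaving out an array gave 0 to 2 for Plakoglobin and 0 to 1 for β-catenin: Plakoglobin arrays 2 and 3, and β-catenin arrays 1 and 3, each carried the count. Fewer peaks or arrays enter these counts by construction.

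Of 37 named member promoters, 22 changed the sign of the difference when an array was left out or with the median over probes, and 15 did not. With the block the difference equals that of the main fit, so the block could not change a sign. Other scalings were not compared per promoter. Leaving out 1 array gave these ranges of the difference: Tgm5 (-0.29 to 0.05), Tgm3 (-0.53 to 0.91), Tgm6 (-0.25 to 0.32), S100a14 (-0.01 to 2.14), S100a16 (-0.81 to 0.21), S100a8 (-0.09 to 0.16), S100a9 (-0.18 to 2.46), Sprr2a1 (-1.31 to 0.33), Sprr3 (-0.65 to 0.33), Ivl (-0.29 to 0.08), Lce1c (-0.09 to 0.25). They were likewise Lce1h (-1.06 to 0.47), Flg, sequence 1 (-0.26 to 0.27), Rptn (-0.64 to 0.12), Asprv1, sequence 1 (-0.15 to 0.04), Klk7 (-0.02 to 0.24), Klk1b7-ps (-0.02 to 2.08), Klk1b21 (-0.22 to 1.30), Klk1b22 (-0.92 to 0.59), Tgm1 (-0.27 to 0.02), Scel (-0.51 to 1.25), Flg, sequence 2 (-0.39 to 0.36). The median over probes gave -0.09 at Tgm6, -0.03 at S100a8 and -0.23 at the second Flg sequence, and 0.03 at Sprr2f and 1.36 at Scel. The cause was not tested. None of these differences was called in these settings.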

Other observations

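Peaks were also listed under late differentiation genes that have no sequence in the promoter table, and they are given as values only. Loricrin (Lor), a main protein of the envelope, had a peak on β-catenin array 1 (score 3.23) at its start site. Suprabasin (Sbsn) had one on Plakoglobin array 1 (score 3.28), Flg2 one on Plakoglobin array 1 (score 1.15), Klk11 one on Plakoglobin array 2 (score 4.99) and hornerin (Hrnr) a pair on Plakoglobin array 2 (scores 2.07 and 2.50). None of these was seen with a second array. At a start site of Flg other than the one of the promoter table, peaks stood on Plakoglobin arrays 1 and 3 and on β-catenin array 3. Scores are the authors' values, of unstated scale, and are not compared between arrays.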
